A study of Mus musculus with 4 samples.

Results

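The genes described here are Sst, Ppy, Pyy, Ghrl and Hhex, which mark the delta, PP and epsilon cells of the pancreatic islet. They were chosen by name as genes of islet cell types other than the alpha and beta cell, with earlier results of these data known. They are 5 of 21887 protein-coding genes placed on the mouse autosomes, X and Y chromosomes. Their distance to the binding sites of NKX2.2 was measured in alphaTC6, an established mouse line of the glucagon-producing alpha cell with a wild-type genotype per the labels. Chromatin immunoprecipitation and sequencing (ChIP-seq), which pulls down the DNA a protein sits on and reads it, was done with an anti-NKX2.2 antibody on 2 samples, and 2 input samples of unenriched DNA from the same line served as the control. The outcome was 1 list of 7384 peak summits, each the base of highest enrichment in a peak, of which 7380 lay on assembled chromosomes. A score was deposited for each summit, taken as the −log10 q-value of the peak against input; the median was 13.7 and the middle of the list ran from 7.98 to 27.7 between the quartiles. The list holds no value per library, so the depth is unknown, no result has a replicate error, and no test between groups could be made. It also holds no expression, so the cell type could not be checked against its markers.

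NKX2.2 is a homeodomain transcription factor of the endocrine pancreas that acts both as a repressor and as an activator. In mice without it, beta cells are not formed, alpha and PP cells are reduced, and ghrelin-producing epsilon cells appear in their place, whereas delta cells are largely spared. Each islet cell type is known by its hormone: somatostatin (Sst) from delta cells, which restrains insulin and glucagon release, pancreatic polypeptide (Ppy) from PP cells, peptide YY (Pyy) from several islet cells and from gut endocrine cells, and ghrelin (Ghrl) from epsilon cells and the stomach. Hhex encodes a homeodomain factor that delta cells need for their identity.

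No summit lay in the promoter of any of the 5 genes. The RefSeq table of GRCm38.p6 promoters, which covers 250 bases before and 50 bases after each transcription start, held 9 windows for them: 4 for Ghrl, 2 for Pyy and 1 each for Sst, Ppy and Hhex. A summit lay in 0 of these 9 windows, against 1451 of 21263 windows of protein-coding genes, or 6.82%. With so few windows, some of which overlap, a count of 0 is near that share. The glucagon gene Gcg, the hormone gene of the alpha cell itself, had a summit in its window, with a score of 6.78, below the lower quartile of 7.98. The 250 bases before the first start of each of these hormone genes are shown as a description. In Sst and Pyy, capitals mark matches to AAGTG, to TNAAGTG (both read as cores of the NKX2-2 motif, the longer holding the shorter) and to TGACGTCA, the full cyclic AMP response element. In Gcg, capitals mark the 21 bases centred on the summit. Both strands were searched, each sequence is written 5′ to 3′ along its gene, and the Ppy and Ghrl stretches shown had no match.
Sst (chr16:23890845-23891094, minus strand): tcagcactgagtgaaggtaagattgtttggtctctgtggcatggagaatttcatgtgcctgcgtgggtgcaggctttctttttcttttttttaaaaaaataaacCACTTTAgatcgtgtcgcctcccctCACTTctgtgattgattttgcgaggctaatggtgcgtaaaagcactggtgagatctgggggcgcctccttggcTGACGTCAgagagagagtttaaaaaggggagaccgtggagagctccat
Ppy (chr11:102101320-102101569, minus strand): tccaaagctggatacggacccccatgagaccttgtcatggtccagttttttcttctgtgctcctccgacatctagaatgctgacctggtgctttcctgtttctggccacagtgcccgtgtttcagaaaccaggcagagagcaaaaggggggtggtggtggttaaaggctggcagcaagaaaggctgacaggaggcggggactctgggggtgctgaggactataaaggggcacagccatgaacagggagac
Pyy (chr11:102107833-102108082, minus strand): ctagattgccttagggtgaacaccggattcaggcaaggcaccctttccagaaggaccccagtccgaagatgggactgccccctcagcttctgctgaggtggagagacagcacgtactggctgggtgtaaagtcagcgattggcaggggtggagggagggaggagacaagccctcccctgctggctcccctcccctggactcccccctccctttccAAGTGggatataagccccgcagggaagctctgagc
Ghrl (chr6:113719912-113720161, minus strand): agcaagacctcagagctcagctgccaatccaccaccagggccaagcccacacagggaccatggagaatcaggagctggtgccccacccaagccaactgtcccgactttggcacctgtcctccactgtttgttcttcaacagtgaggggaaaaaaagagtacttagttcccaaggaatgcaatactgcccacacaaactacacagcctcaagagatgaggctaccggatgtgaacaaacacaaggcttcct
Gcg (chr2:62483654-62483903, minus strand): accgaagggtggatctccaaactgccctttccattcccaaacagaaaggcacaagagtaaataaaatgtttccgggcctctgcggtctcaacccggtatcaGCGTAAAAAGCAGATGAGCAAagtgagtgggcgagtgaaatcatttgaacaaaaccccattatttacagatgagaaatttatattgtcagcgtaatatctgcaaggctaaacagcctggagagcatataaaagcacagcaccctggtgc

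The Sst window was the only one of the 9 with TNAAGTG, on the opposite strand with its first base at -146, counted upstream from the start site. TNAAGTG was found in 2288 of all 21263 windows, 10.8%. The Sst window also held TGACGTCA at -48, the element through which CREB activates somatostatin transcription, which was found in 475 windows, 2.23%. The shorter AAGTG, chosen after the values were seen, was found in 9621 windows, 45.2%. It was found in 4 of the 9 windows here, which belong to 3 of the 5 genes. It lay at 2 places in the Sst window, at -146 and -121. It also lay at -35 from the first Pyy start, a single site that both overlapping Pyy windows hold. In the window of the Ghrl start nearest the end of the gene it lay 3 times. In the Gcg window the summit lay at -139 and an AAGTG began at -129, while TNAAGTG was not present. The Ppy and Hhex windows had neither form. The Hhex window was the richest in G and C, at 75.7%, against 46.7% to 61.0% in the windows of the hormone genes and a median of 56.3% over all windows. Of 922 windows with at least the GC content of Hhex, 15 held a summit, or 1.63%.

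The first comparison asked how many of the 5 genes had a summit in or near the gene body. None had a summit inside the gene, where 13.4% of all protein-coding genes had one, and none had a summit in the gene or within 10 kb of it, where 25.8% did. Within 50 kb, 3 of the 5 had a summit, namely Ppy, Pyy and Hhex, against 43.8% of protein-coding genes. Within 100 kb Ghrl joined them, making 4 of 5, against 55.3%. Sst had none within 100 kb. Measured from transcription starts in place of gene bodies, which leaves gene length out, the members' counts were again 0, 3 and 4 of 5, against 18.5%, 38.1% and 51.6% of the 17492 protein-coding genes with a start in the table. The counts at 50 kb and 100 kb rest on few sites, because Ppy and Pyy are neighbours that share their summits: 2 distinct summits accounted for the 3 genes within 50 kb, and 5 for the 4 genes within 100 kb. With summits scoring under 5 left out, Hhex alone had a summit within 50 kb, against 41.2% of all protein-coding genes. The smallest distances lay outside the limit of 10 kb, at 12.6 kb for Ppy and 17.4 kb for Hhex, and Ghrl, at 59.1 kb, lay outside 50 kb. The median distance of the 5 genes was 19.4 kb, against 73.7 kb over all protein-coding genes, of which 256 lie on the Y chromosome, where no summit was called. This median rests on the low-scoring summit shared by Ppy and Pyy: with a score minimum of 5 it was 59.1 kb, against 84.2 kb over all protein-coding genes, and with a minimum of 10 it was 65.0 kb, against 128 kb.

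**Figure D1:**
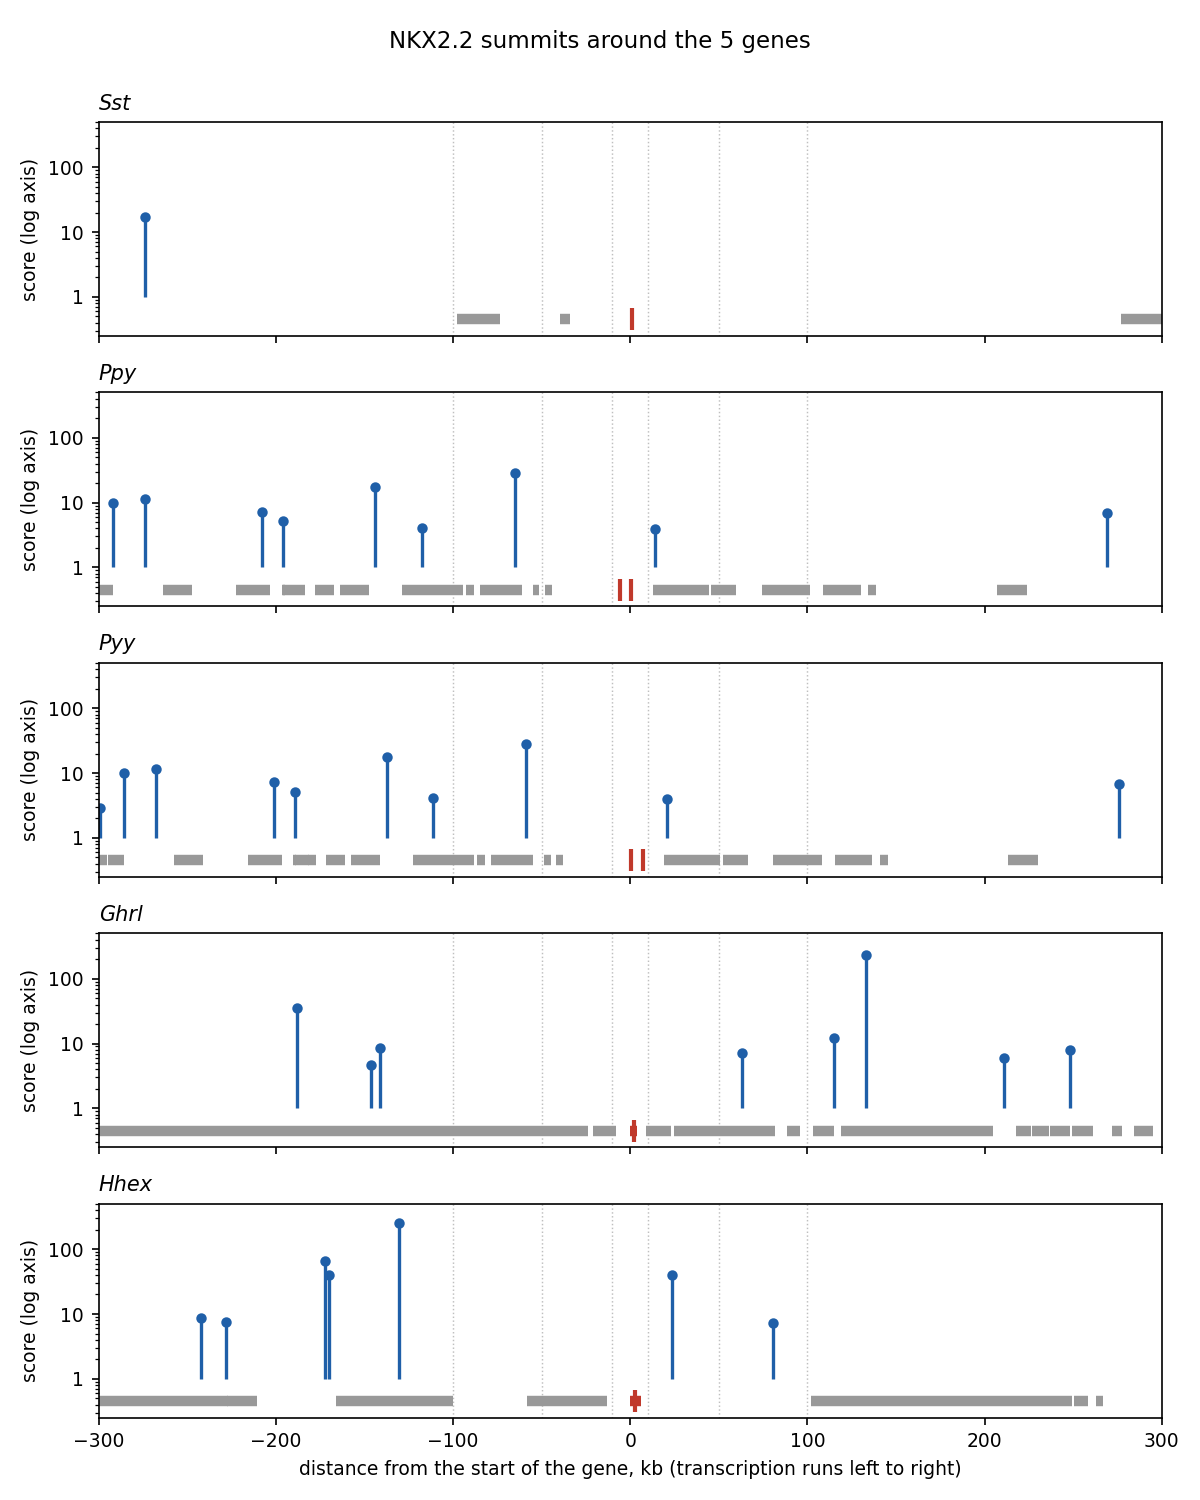
Summits around Sst, Ppy, Pyy, Ghrl and Hhex. The x axis gives the distance from the start of the gene in kb, with transcription from left to right, and the y axis the deposited score on a log scale. Blue stems are summits, red marks are the member genes (Ppy and Pyy both appear in each other's panel), grey bars are other protein-coding genes, and dotted lines lie 10, 50 and 100 kb from the start. No stem stands within 10 kb of a red mark, and the Sst panel has 1 summit within 300 kb on either side, at 274 kb upstream.

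Among the delta cell genes, Sst was the farthest from a summit. Sst (gene ID 20604) spans positions 23889573 to 23891342 of chromosome 16 on the minus strand. Its nearest summit was 274 kb upstream at position 24165457, with a score of 17.2 and rank 3018 of the 7380 placed summits. Of all protein-coding genes, 72.3% had a summit as near or nearer. Between the gene and this summit lie Rtp2, a receptor transporter gene, Bcl6, which encodes a transcriptional repressor, and the noncoding RNA genes Gm31527, Gm46545, Gm31583 and Gm32126. Bcl6 was the protein-coding gene nearest to the summit, at 177 kb from it, and the nearest annotated start of any gene was 5.90 kb away. On the other side, downstream of Sst, the first summit was 1287 kb away, inside the diacylglycerol kinase gene Dgkg, with a score of 39.0. The interval between summits that holds Sst was therefore 1.56 Mb long. Of the 18246 protein-coding genes that lie between a pair of summits, 31.0% sat in an interval at least as long, and the median interval was 637 kb.

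Hhex, the delta cell transcription factor gene, was itself the protein-coding gene nearest to its nearest summit. This held for 1 of the 5 genes and for 21.9% of all protein-coding genes. Hhex (gene ID 15242) spans positions 37434841 to 37440731 of chromosome 19 on the plus strand. Its nearest summit lay 17.4 kb downstream of the gene at position 37458179, outside any protein-coding gene, with a score of 39.3 and rank 1210. This score was at or above that of 83.6% of summits. Of the summits nearest to the 5 genes it was the highest. A further summit 74.5 kb downstream at position 37515265, with a score of 7.18, lay nearer to Exoc6, which encodes an exocyst subunit, at 21.5 kb from it. Upstream of Hhex the first summit was 131 kb away at position 37304133, inside Ide, the gene of the insulin-degrading enzyme. Its score of 253 ranked 106. Another pair of summits lay beyond Ide, at 170 kb and 172 kb from Hhex, with scores of 39.6 and 66.4. Kif11, a mitotic kinesin gene between Hhex and Ide that was named after its values were seen, held no summit.

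The PP cell genes Ppy and Pyy are tandem relatives of the neuropeptide Y family that lie 5.36 kb apart, and both were near a weak summit. Ppy (gene ID 19064) spans positions 102099931 to 102101319 and Pyy (gene ID 217212) positions 102106676 to 102107832 of chromosome 11, both on the minus strand. The summit nearest to both was at position 102087297, 12.6 kb downstream of Ppy and 19.4 kb downstream of Pyy. It lay inside Mpp2, a scaffold protein gene, 1.22 kb from the nearest annotated start. Its score of 3.97 ranked 7005 of 7380, at or above that of 5.09% of summits. The next summit, at position 102166367, lay upstream, 65.0 kb from Ppy and 58.5 kb from Pyy, inside the RNA-binding protein gene Lsm12. Its score was 28.4, rank 1786. The interval between these summits that holds both genes was 79.1 kb long. A share of 7.41% of the genes that lie between a pair of summits sat in an interval as short or shorter. Further upstream, a summit inside the histone deacetylase gene Hdac5 (score 4.09) lay 111 kb from Pyy and 118 kb from Ppy.

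Ghrl, the epsilon cell hormone gene, lay between the other members in distance. Ghrl (gene ID 58991) spans positions 113716119 to 113719911 of chromosome 6 on the minus strand. Its nearest summit was 59.1 kb downstream at position 113657065, inside Irak2, a kinase gene of interleukin-1 receptor signalling, with a score of 7.03 and rank 5904. Of all protein-coding genes, 46.4% had a summit as near or nearer. Tatdn2, a nuclease gene, and the microRNA gene Mir7042 lie between them. The next summits downstream were 111 kb away, 92 bp from the actin regulator gene Brk1, with a score of 12.0, and 129 kb away inside the DNA repair gene Fancd2. The Fancd2 summit, at position 113586667, had a score of 236 and rank 117. Upstream, the first summit was 141 kb away inside Atp2b2, which encodes a plasma membrane calcium pump, with a score of 8.60. The interval that holds Ghrl was 204 kb long.

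**Figure D2:**
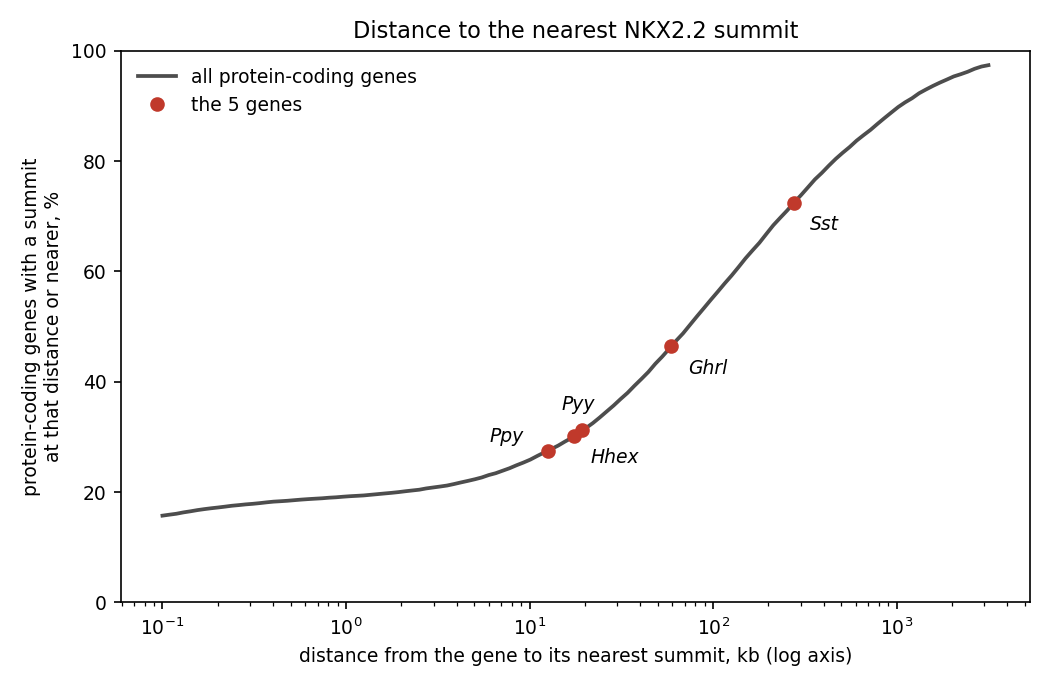
Distance from each protein-coding gene to its nearest summit. The x axis is the distance in kb on a log scale, the y axis the percentage of the 21887 protein-coding genes with a summit at that distance or nearer, and red points are the 5 genes on that curve. Ppy, Hhex and Pyy lie between 27.5% and 31.2%, Ghrl at 46.4% and Sst at 72.3%.

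With all summits counted, the order of the distances was Ppy, Hhex, Pyy, Ghrl and Sst, at 27.5%, 30.1%, 31.2%, 46.4% and 72.3% of the distribution of all protein-coding genes. With a score minimum of 5 the order was Hhex (17.4 kb), Pyy (58.5 kb), Ghrl (59.1 kb), Ppy (65.0 kb) and Sst (274 kb), so that Sst alone kept its place. No spread between replicates exists to say which neighbours in this order differ. The scores of the nearest summits had another order: 39.3 at Hhex, 17.2 at Sst, 7.03 at Ghrl, and 3.97 at Ppy and Pyy. For comparison, the summit nearest to a gene had a median score of 14.3 over the 9585 protein-coding genes with a summit in or within 50 kb. The Hhex summit lay above this value and the summit shared by Ppy and Pyy below it.

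The surroundings of the 5 genes differed as well. Within 500 kb of the gene on either side, Sst had 1 summit among 6 protein-coding genes (the gene itself included), Hhex had 10 among 10, Ghrl 11 among 26, Ppy 19 among 32 and Pyy the same 19 among 33. The median protein-coding gene had 4 summits in this range. As many summits as at Ppy and Pyy, or more, were found around 1.69% of protein-coding genes, and as few as at Sst, or fewer, around 29.3%. Around Ppy and Pyy the median score was 8.87, below the 13.7 of the whole list, and the maximum 28.4. Of the 19 summits there, 5 lay within 1 kb of an annotated transcription start. Around Hhex the median score was 23.5 and the maximum 253, and 2 of 10 summits lay within 1 kb of a start. Around Ghrl the median was 7.92 and the maximum 236, with 5 of 11 summits that close to a start. No value over all summits or all genes stands beside the counts near a start and the gene counts. Those counts are descriptions only. Ppy and Pyy thus lay in a region with many summits and Sst in a region with 1, while the median score was lowest around Ghrl.

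The partners of these hormones were examined next. The list of receptors held 11 genes, the 5 somatostatin receptors, 5 neuropeptide Y receptors and the ghrelin receptor Ghsr. Of these, 1 had a summit in the gene or within 10 kb, against 25.8% of all protein-coding genes, and 5 had one within 50 kb, against 43.8%. The 5 were Sstr2, Sstr3, Sstr4, Sstr5 and Ghsr, and none was a neuropeptide Y receptor. Within 100 kb the count was 7, against 55.3%, and it then included Npy1r and Npy5r. These lay 61.8 kb and 80.5 kb from a shared summit scoring 26.5. Apart from Sstr3, the 7 genes were named after their values were seen. With a score minimum of 10 the count within 50 kb was 2, against 33.7% of all protein-coding genes. Inside Sstr3, a somatostatin receptor gene on chromosome 15, a summit at position 78541815 scored 102 and ranked 368. Sstr1 was the farthest, at 715 kb. The median distance of the list was 61.8 kb, against 73.7 kb over all protein-coding genes.

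Another list held 10 other genes assigned to delta, PP or epsilon cells, of which Ghsr also stands among the receptors. Summits were found in the gene or within 10 kb for 4 of them, within 50 kb for 6 and within 100 kb for 7, where the shares of all protein-coding genes were 25.8%, 43.8% and 55.3%, with a median distance of 39.9 kb. Mboat4, which encodes the enzyme that acylates ghrelin, held a summit on chromosome 8 (position 34124115) that scored 44.6 and ranked 1015. The transcription factor gene Etv1 also had a summit inside the gene, the highest scoring 4.89. With a score minimum of 5 the count in or within 10 kb stayed at 4, against 23.7% of all protein-coding genes. Etv1 therefore also had a summit scoring at least 5 outside the gene and within 10 kb. Npy, the neuropeptide relative of Ppy and Pyy, was the farthest at 251 kb.

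Genes of other islet endocrine types were measured the same way, and are to be read against the 25.8% of all protein-coding genes with a summit in or within 10 kb and the 13.4% with one inside. All the gene lists, those above included, were chosen with earlier results of these data known, so their counts are descriptions only. Of 10 alpha cell genes, 7 had a summit in or within 10 kb, 4 of them inside the gene, and the median distance was 0.150 kb. Gcg was 139 bp from its summit, which scored 6.78. The summits inside Irx1, Irx2, Ttr and Sphkap had top scores of 5.69, 19.7, 37.6 and 9.22, while Pou3f4 was the farthest of the list at 5422 kb. When summits scoring under 10 were left out, 3 of the alpha cell genes had one within 10 kb and 3 within 50 kb, against 18.2% and 33.7% of all protein-coding genes, with a median distance of 220 kb. Of 10 beta cell genes, 5 had a summit in or within 10 kb, with a median distance of 38.0 kb, and 3 with a score minimum of 10. The nearest was G6pc2, the islet glucose-6-phosphatase gene, with a summit inside it scoring 5.78. The insulin genes Ins1 and Ins2 were 774 kb and 218 kb from a summit. Of 10 genes shared by islet endocrine cells, 5 had a summit in or within 10 kb, with a median of 10.4 kb, and 5 also with a score minimum of 10. Pax6, Isl1 and Nkx2-2, all transcription factor genes, had summits inside, with top scores of 13.7, 9.61 and 51.4, and Rfx6 was the farthest at 780 kb.

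**Figure D3:**
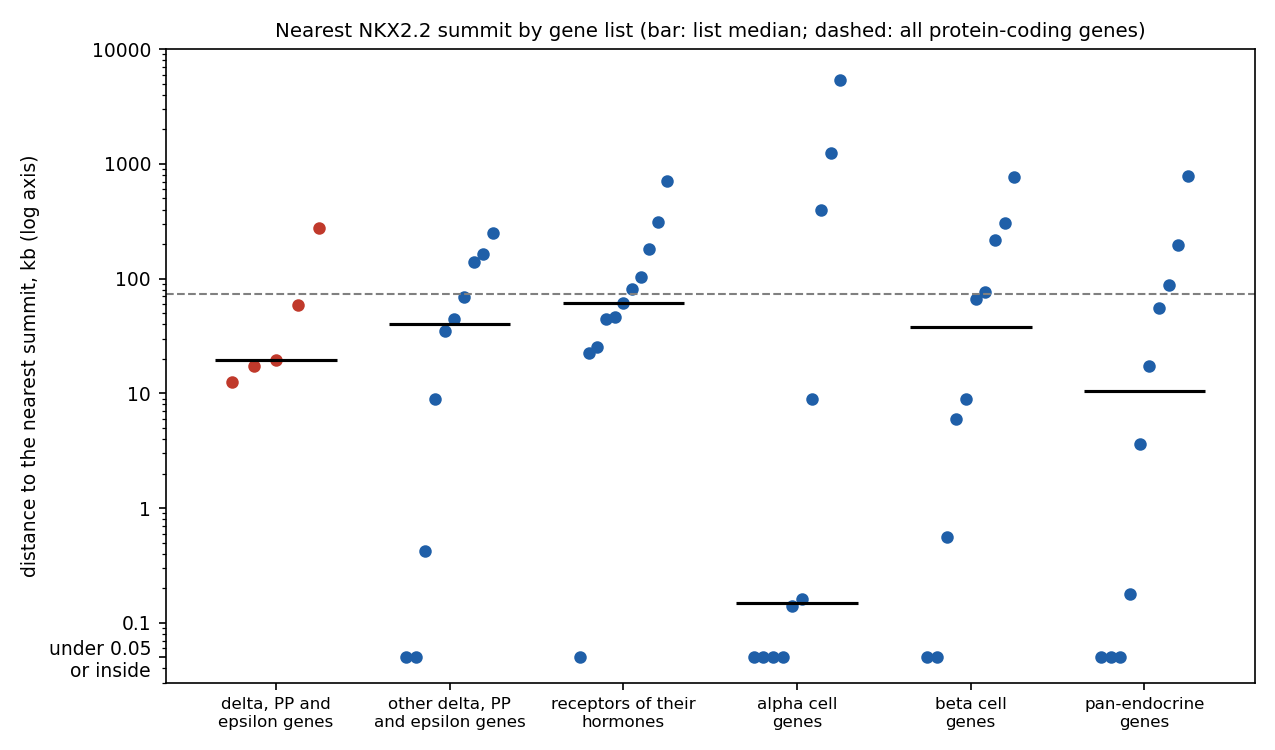
Distance to the nearest summit for each gene of 6 lists. The y axis is the distance in kb on a log scale, with genes that hold a summit or lie under 0.05 kb from one at the bottom, each point is a gene, bars are list medians and the dashed line is the median of all protein-coding genes, 73.7 kb. The 5 delta, PP and epsilon genes, in red, run from 12.6 to 274 kb, and the other lists each have a gene that holds a summit.

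Set side by side, the hormone genes of the islet differed in distance to the nearest summit from 139 bp at Gcg to 774 kb at Ins1. Ppy and Pyy, at 12.6 kb and 19.4 kb, and Ghrl, at 59.1 kb, lay between these, and Sst, at 274 kb, lay beyond Ins2 at 218 kb. The summits nearest to Gcg, Ppy, Pyy and Ghrl all scored under 10. Iapp, the hormone gene of amylin in the beta cell list, was 8.90 kb from a summit scoring 135. It was named after its values were seen. Of all protein-coding genes, 25.8% had a summit in or within 10 kb. In the list of the 5 genes described here, 0 of 5 had one. The counts were 4 of 10 for the other delta, PP and epsilon genes and 1 of 11 for the receptors. They were 7 of 10, 5 of 10 and 5 of 10 for the alpha cell, beta cell and shared endocrine genes. These counts were not tested against each other. A gene without a nearby summit is one where no peak was called at the authors' threshold, and occupancy below it was not measured.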

How the data were processed

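ChIP-seq of NKX2.2 and input DNA was done in alphaTC6 cells, 2 samples each, as the titles give them. Per the labels' design text, MACS2 was the peak caller; Bowtie2, FastQC and the build mm10 are named in the submitters' processing notes, without versions. The deposited values are taken as −log10 q-values, which is how MACS2 writes summit files: the lowest was 2.03, just above the value of 2 that a q of 0.01 gives. Pooling of replicates and handling of duplicates are not given in the sources used here.

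Summit positions were read as start + 1. Genes and promoter sequences came from RefSeq tables of GRCm38.p6, the assembly of mm10. All 55 genes of the lists matched by symbol, and 17492 protein-coding genes had a promoter window. Distance was measured from the gene body, 0 inside it. Exons, introns and UTRs were not distinguished. The 5 genes and the lists were chosen with earlier results of these data known. Named genes are the 5 themselves, genes between them and their nearest summit, the nearest gene of that summit, the nearest and farthest gene of each list, and Gcg, Ins1, Ins2 and Nkx2-2. The flanking summits and their genes, Kif11, Sstr2, Sstr4, Sstr5, Ghsr, Npy1r, Npy5r and Iapp were added after their values were seen. No column of other samples was present. The distance calculation was tested on simulated data. Alternatives covered score minimums of 5 and 10, merging of summits within 500 bp, distance from transcription starts, the summit position, the background genes and the motif. Scripts ran in Python 3.11.15 with pandas 2.3.3, numpy 2.4.6, matplotlib 3.10.9 and scipy 1.17.1.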

Additional observations from a re-analysis of the deposited data

How the results depend on the processing

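No paired analysis was possible because summits carry no values of single libraries, which also prevented leaving out a replicate. The count of 0 genes within 10 kb was also 0 under all 5 alternatives computed for it, but these could hardly have raised it. Score minimums and merging only take summits away, and a start is no nearer to a summit than its gene body. The change of summit position was 1 base. Within 50 kb the count fell from 3 to 1 (Hhex) at a score minimum of 5 and also to 1 at 10, since the summit in Mpp2 scores below 5. The share of all protein-coding genes within 50 kb went from 43.8% to 41.2% at a minimum of 5 and 33.7% at 10. At both minimums Ppy was then 65.0 kb and Pyy 58.5 kb from a summit, and at 10 Ghrl was 111 kb from one. The median of the 5 distances moved from 19.4 kb to 59.1 kb at a minimum of 5 and 65.0 kb at 10. At a minimum of 10, receptors with a summit within 50 kb fell from 5 to 2 and alpha cell genes from 7 to 3, against the 33.7%. Within 10 kb, alpha cell genes fell from 7 to 3 and beta cell genes from 5 to 3. The share of all protein-coding genes within 10 kb fell from 25.8% to 18.2%. Median distances then moved to 103 kb for receptors, 220 kb for alpha cell genes (4.49 kb at a minimum of 5) and 95.1 kb for beta cell genes. With all annotated genes as background, the share within 10 kb was 16.7%. AAGTG in place of TNAAGTG, an alternative chosen after seeing the data, gave 3 genes instead of 1. Of the distances from transcription starts, all 5 stayed within 1.5 times. The planned sequence windows at summits were not run, since no genome sequence was used here. With the depth unknown, a gene without a summit is only one where no peak was called.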

Other observations

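Across the 21263 promoter windows, the motifs searched at the 5 genes were divided by summits as follows. TNAAGTG was present in 137 of 1451 windows with a summit, 9.44% (95% Wilson interval 8.04% to 11.1%, counting error only), and in 10.9% of the 19812 windows without one. AAGTG was present in 46.0% and 45.2%. TGACGTCA, the element present in the Sst window, was found in 71 windows with a summit, 4.89% (95% Wilson interval 3.90% to 6.13%), and in 2.04% of those without. The median GC content was 61.7% in windows with a summit and 55.7% in those without, and its part in these shares was not tested. The 21263 windows belong to 17492 genes and some overlap, so they are not independent. The intervals leave this out and are not a test of the shares.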
